A study of Mus musculus with 12 samples.

Results

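Late neutrophil granule genes were followed through bulk RNA-seq of mouse basophil-lineage cells. The 7 genes were S100a8, S100a9, Ngp, Camp, Ltf, Lcn2 and Chil3, chosen by symbol as secondary granule and cytosolic genes of maturing neutrophils. Their covariation between these libraries also entered the choice, and earlier results of these data were known. All 7 were in the deposited table of 32227 genes, and all 7 passed the filter on low counts that left 15083 genes for testing. The 12 libraries formed 4 groups of 3, all from wild-type C57BL/6J mice (age not stated). Basophil progenitors (BaPs) were CD200R3+ cKit- CLEC12A-high CD34+ cells of the bone marrow (BM), and pre-basophils were CD34- CLEC12A-high CD9-low cells of the bone marrow. Mature basophils were CD34- CLEC12A-low CD9-high cells, sorted separately from the bone marrow and the spleen. Each library held cells pooled from several mice, and p-values therefore measure the variation among such pools.

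Neutrophils build their granules in waves. Primary granule enzymes such as elastase, cathepsin G and myeloperoxidase are transcribed in promyelocytes, and the secondary and tertiary granule proteins follow in myelocytes and metamyelocytes, largely under the transcription factor C/EBP epsilon. Maturing neutrophils of the bone marrow hold these late transcripts in great abundance, and basophils are a separate granulocyte lineage with granules of their own. In bulk libraries, fewer cells of a type and less RNA per cell cannot be told apart.

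S100a8 and S100a9 encode the subunits of calprotectin, a calcium- and zinc-binding protein that fills the neutrophil cytosol. Ngp (neutrophilic granule protein) and Camp (the precursor of cathelicidin, an antimicrobial peptide) encode secondary granule proteins of the cystatin fold. Ltf encodes lactoferrin, an iron-binding protein of the secondary granule, and Lcn2 encodes lipocalin-2, which binds bacterial siderophores. Chil3 encodes Ym1, a chitinase-like lectin made by neutrophils and some macrophages. On GRCm38, S100a8 (ENSMUSG00000056054.9, chromosome 3, 90668978 to 90670035), Chil3 (ENSMUSG00000040809.10, chromosome 3, 106147554 to 106167564) and S100a9 (ENSMUSG00000056071.12, chromosome 3, 90692632 to 90695721) lie on 1 chromosome. On another lie Ngp (ENSMUSG00000032484.8 at 110419747 to 110423012 of chromosome 9), Camp (ENSMUSG00000038357.10 at 109847379 to 109849617) and Ltf (ENSMUSG00000032496.7 at 111019271 to 111042767), and Lcn2 (ENSMUSG00000026822.14, chromosome 2, 32384633 to 32388252) lies apart from them. Counts were summed over each gene's transcripts, so the values stand for whole genes.

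Because the genes moved together between libraries, the 150 bases before the outermost annotated start (RefSeq or GENCODE) were searched for 5 short motifs on both strands. RefSeq promoter sequences (GRCm38.p6) covered this window for 5 of the 7 genes and for 16514 genes in all. The windows of Ngp and Ltf are shown because they alone of the 5 held the C/EBP letters TTGCNNAA, with every match of the 5 motifs in capitals.
Ngp (chr9:110419597-110419746, plus strand): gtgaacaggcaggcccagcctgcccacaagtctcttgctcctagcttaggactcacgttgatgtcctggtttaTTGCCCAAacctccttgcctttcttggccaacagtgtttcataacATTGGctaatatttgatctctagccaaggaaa
Ltf (chr9:111019121-111019270, plus strand): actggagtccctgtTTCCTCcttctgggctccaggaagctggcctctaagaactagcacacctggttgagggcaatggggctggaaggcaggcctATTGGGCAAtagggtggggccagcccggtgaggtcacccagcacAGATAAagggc
S100a8 (chr3:90668828-90668977, plus strand): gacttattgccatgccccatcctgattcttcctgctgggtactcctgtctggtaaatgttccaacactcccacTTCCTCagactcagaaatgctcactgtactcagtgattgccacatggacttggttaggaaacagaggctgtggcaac
The C/EBP letters began 77 bases before the start in Ngp and 54 bases before it in Ltf, where they overlapped a reversed CCAAT, and 5.40% of all windows held them. CCAAT was in 2 of the 5 windows (Ngp and Ltf) and in 27.4% of all windows. GAGGAA, letters of the ETS family that PU.1 belongs to, was in 2 windows (S100a8, shown for this match, and Ltf) and in 14.3% of all. AGATAA, letters read by the family of the basophil factor Gata2, was in 3 windows (S100a9, Ltf and Chil3) and in 4.75% of all, and TATAAA was in 0 of the 5 and 6.74% of all. No motif was in all 5 windows, and a match is a description of letters, not of a bound site.

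Library totals ran from 3596108 to 8151030 counts, and 3 counts, the most that a count of 0 allows, stood for 0.290 to 0.955 CPM (counts scaled to a common library total after TMM adjustment, which centres the ratios between libraries). BaP replicate 3 stood apart from the other 11 libraries, with 3.53% mitochondrial counts against 0.9998% to 1.82%. Its 8 listed T and NK cell markers summed to 555 CPM against 16.8 to 47.2 CPM elsewhere, and its 9 erythroid markers to 2417 CPM against 8.84 to 261 CPM. Its 10 basophil markers, Mcpt8 and Prss34 among them, summed to 25482 CPM, against 61896 to 71476 CPM in the other 5 BaP and pre-basophil libraries. Of the T and NK cell and erythroid markers, 0 were at a count of 0 in it, against 0 to 2 and 1 to 4 in the others. Calls of the late neutrophil granule genes that rest on this library are given with and without it. Calls of the other gene lists in BaPs are given only with it, and their dependence on it was not tested.

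Summed over the 7 genes, late granule RNA was a small part of every library and differed widely between pools of the same sort. In BaPs the genes took 0.0177% (95% Wilson interval 0.0164% to 0.0190%), 0.0795% (0.0767% to 0.0824%) and 0.246% (0.242% to 0.249%) of the counts of replicates 1, 2 and 3. The corresponding pre-basophil shares were 0.0373% (0.0353% to 0.0393%), 0.0898% (0.0869% to 0.0928%) and 0.190% (0.186% to 0.193%). BM mature libraries held 0.00575%, 0.00345% and 0.00581%, and spleen mature libraries held 0.00474%, 0.00470% and 0.00487%. Intervals cover counting error only. In both CLEC12A-high groups the library numbered 1 was the lowest and the library numbered 3 the highest, with none of the intervals overlapping, whereas the 3 spleen libraries lay within each other's intervals. The libraries numbered 3 were also the deepest of their groups. Pre-basophil replicate 3 reached a summed level of 1898 CPM with T and NK cell markers at 19.2 CPM and erythroid markers at 45.7 CPM, and BaP replicate 3 reached 1906 CPM with both lists high.

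**Figure D1:**
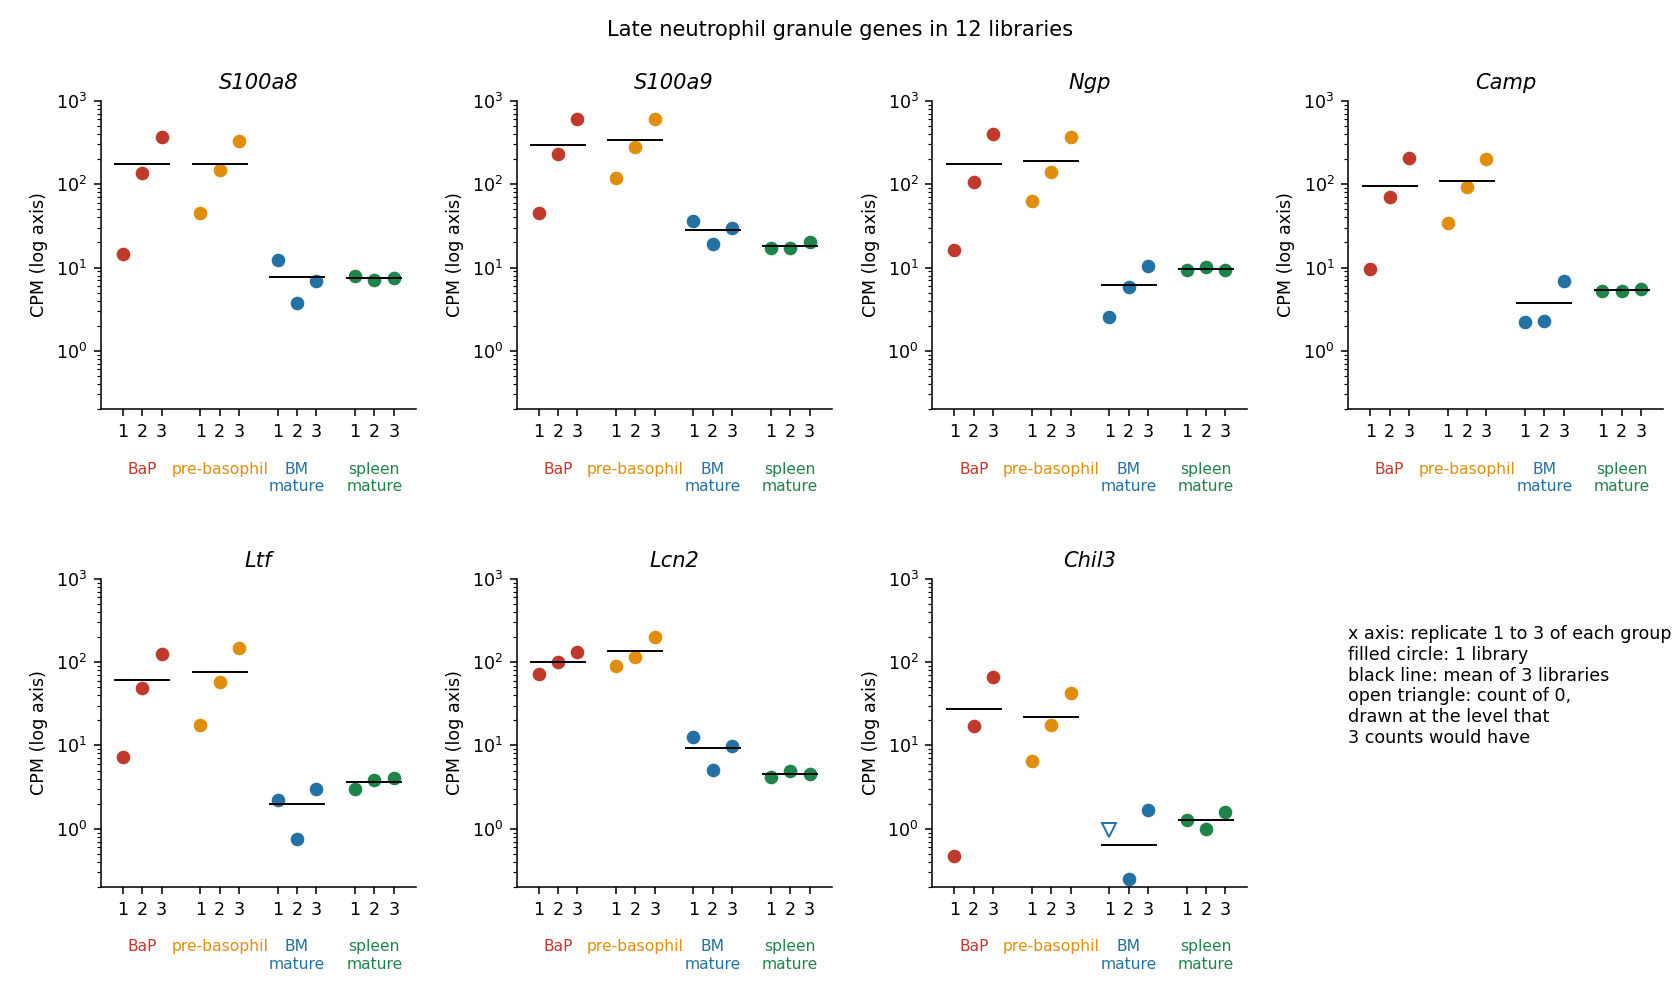
CPM of the 7 genes on log axes, 1 panel per gene and 1 point per library, with black lines at the group means of 3 libraries and an open triangle, drawn at the level of 3 counts, for the BM mature library without a Chil3 count. The 6 BaP and pre-basophil libraries are spread over more than an order of magnitude in S100a8, S100a9, Ngp, Camp and Ltf, but Lcn2 stays between 70.9 and 198 CPM in them.

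The calprotectin subunits are described first. S100a8 stood at 14.6, 138 and 370 CPM in BaP replicates 1 to 3, at 45.3, 148 and 333 CPM in pre-basophils, at 12.4, 3.76 and 6.93 CPM in BM mature basophils and at 8.001, 7.10 and 7.44 CPM in spleen mature basophils. S100a9 stood at 44.7, 227 and 605 CPM in the BaP libraries, 117, 279 and 609 in the pre-basophil libraries, 36.3, 19.3 and 30.1 in BM mature and 17.1, 17.3 and 20.2 in spleen mature basophils. For both genes every BaP and pre-basophil library lay above every mature library, although BaP replicate 1 exceeded the highest mature library only narrowly.

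Among the secondary granule genes, Ngp was found at 16.0, 106 and 401 CPM in the BaP libraries, 62.9, 141 and 367 in the pre-basophil libraries, 2.55, 5.76 and 10.3 in BM mature and 9.28, 10.1 and 9.30 in spleen mature basophils. Camp had 9.56, 69.3 and 208 CPM in the BaP libraries, 34.4, 91.8 and 198 in the pre-basophil libraries, 2.23, 2.25 and 6.93 in BM mature and 5.28, 5.28 and 5.58 in spleen mature basophils. Ltf had 7.17, 49.3 and 126 CPM in the BaP libraries, 17.6, 58.2 and 150 in the pre-basophil libraries, 2.23, 0.751 and 2.995 in BM mature and 3.04, 3.79 and 4.12 in spleen mature basophils. The 3 genes shared the order of the pools, with BaP replicate 1 closest to the mature libraries and the libraries numbered 3 highest. In BM mature basophils they rested on few counts, from 8 to 55 for Ngp, 7 to 37 for Camp and 3 to 16 for Ltf.

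Lcn2 differed in its spread. Its levels were 70.9, 100 and 131 CPM in the BaP libraries, 90.6, 115 and 198 in the pre-basophil libraries, 12.7, 5.01 and 9.92 in BM mature and 4.16, 4.95 and 4.52 in spleen mature basophils. The gap between the lowest CLEC12A-high library and the highest mature library was thus much wider than for the other genes, and BaP replicate 1 was no exception to it.

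Chil3 was the rarest, at 0.478, 17.0 and 65.4 CPM in the BaP libraries and at 6.43, 17.8 and 42.2 CPM in pre-basophils. BM mature libraries had 0, 0.250 and 1.68 CPM (0, 1 and 9 counts, the first of which allows up to 0.955 CPM), and spleen mature libraries had 1.28, 0.990 and 1.59 CPM. The 2 counts of BaP replicate 1 (95% interval 0.131 to 1.74 CPM) put this library among the mature ones. Chil3 shares long stretches of sequence with Chil4, which was at 0 to 2.42 CPM. The handling of reads that match both is not known, and neither is the error that this leaves in the level of Chil3.

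Per kilobase of exon, the order of the mean levels was S100a9, S100a8, Ngp, Camp, Lcn2, Ltf and Chil3 in all 4 groups. Whether counts grow with exon length in these libraries was not tested, and the order holds for this scale only. By mean CPM, without division by exon length, Ngp stood above S100a8 and Lcn2 above Camp in pre-basophils. Pre-basophil means were 642 ± 480 CPM per kilobase for S100a9, 253 ± 210 for S100a8, 156 ± 129 for Ngp, 143 ± 110 for Camp, 51.3 ± 21.5 for Lcn2, 21.8 ± 19.6 for Ltf and 13.6 ± 11.2 for Chil3 (SD, n = 3). Neighbours in this order differed by less than the larger of their SDs, except Lcn2 and Ltf. The spread between pools is shared by the genes. In spleen mature basophils, where the spread was small, the means were 34.9 ± 3.28 for S100a9, 10.8 ± 0.659 for S100a8, 7.81 ± 0.367 for Ngp, 7.10 ± 0.226 for Camp, 1.73 ± 0.151 for Lcn2, 1.06 ± 0.160 for Ltf and 0.789 ± 0.185 CPM per kilobase for Chil3. There all neighbours in the order differed by more than the larger of their SDs. Ltf and Chil3 lay nearest to each other, and their ranges of mean ± SD overlapped.

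Pre-basophils were first compared with BM mature basophils, the cells they are set against in the study's design. All 7 genes were higher in pre-basophils at an adjusted p under 0.05 (edgeR quasi-likelihood test, Benjamini-Hochberg over all tested genes), where 16.3% of all tested genes were called in this direction. In all 7 every pre-basophil library lay above every BM mature library, which held for 25.5% of tested genes. The median log2 fold change of the 7 was 4.73, against -0.0044 over all tested genes. Lactoferrin had the largest estimate, with a mean of 75.1 ± 67.6 CPM in pre-basophils against 1.99 ± 1.14 CPM (SD, n = 3 each) and a log2 fold change of 5.19 ± 1.03 (SE; edgeR adjusted p = 0.00207). Ngp had a log2 fold change of 4.86 ± 0.98, Chil3 4.83 ± 1.30, Camp 4.73 ± 0.95 and S100a8 4.56 ± 0.97, with edgeR adjusted p-values of 0.00230, 0.0138, 0.00230 and 0.00317. The smaller estimates were those of Lcn2, 3.89 ± 0.35 (edgeR adjusted p = 5.80e-06), and S100a9, 3.56 ± 0.75 (edgeR adjusted p = 0.00295). The SE of Lcn2 was the smallest of the 7, and its 95% interval (3.14 to 4.64) lay inside those of S100a8 (2.49 to 6.64), Ngp (2.75 to 6.96) and Camp (2.68 to 6.77).

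Calls and sizes depended on the pools in part. With limma-voom 3 of the 7 genes were called (S100a9, Ngp and Lcn2), and the adjusted p of S100a8, Camp, Ltf and Chil3 was then 0.0501, 0.0646, 0.101 and 0.279. Leaving out single libraries ended the call of Chil3 in 3 cases, pre-basophil replicate 3 (edgeR adjusted p = 0.0608), BM mature replicate 1 (0.0516) and BM mature replicate 2 (0.0597), and its log2 fold change was 7.13 without BM mature replicate 3. With pre-basophil replicate 3 left out, estimates on the log2 scale went down to 3.70 for S100a8, 2.80 for S100a9, 3.96 for Ngp, 3.95 for Camp and 4.20 for Ltf, and that of Lcn2 was 3.49, with all 6 still called. Without BM mature replicate 3 those of Ngp and Camp were 5.47 and 5.59. Leaving out BaP replicate 3 and pre-basophil replicate 3 together kept all 7 calls.

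BaPs were compared with BM mature basophils next, a comparison that shares its control libraries with the one above. All 7 genes were called higher in BaPs, against 25.3% of all tested genes, and 6 of the 7 did not overlap between the groups, against 28.1% of all tested genes. Chil3 was the exception, since BaP replicate 1 lay below BM mature replicate 3. Log2 fold changes were 4.56 ± 0.97 (SE) for S100a8, 3.37 ± 0.74 for S100a9, 4.74 ± 0.98 for Ngp, 4.56 ± 0.95 for Camp, 4.90 ± 1.03 for Ltf, 3.47 ± 0.35 for Lcn2 and 5.17 ± 1.28 for Chil3, with edgeR adjusted p-values from 3.45e-06 (Lcn2) to 0.00486 (Chil3). Without BaP replicate 3, the library with T and NK cell and erythroid markers, all 7 were still called, at 3.37 for S100a8, 2.27 for S100a9, 3.19 for Ngp, 3.24 for Camp, 3.76 for Ltf and 3.44 for Chil3. Without BM mature replicate 3 the values were 5.35 for Ngp, 5.42 for Camp and 7.46 for Chil3. With limma-voom 2 of the 7 were called, S100a9 and Lcn2.

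Between BaPs and pre-basophils, the neighbouring CLEC12A-high stages, 0 of the 7 genes passed the threshold in either direction, and 0 had an unadjusted p under 0.05 in edgeR. Of all tested genes, 2.79% were called higher and 4.29% lower in BaPs. Group means were 174 ± 181 against 175 ± 146 CPM for S100a8, 292 ± 286 against 335 ± 251 CPM for S100a9, and 174 ± 201 against 190 ± 158 CPM for Ngp (SD, n = 3 each). Log2 fold changes ran from -0.42 for Lcn2 to 0.34 for Chil3. The 95% intervals were wide, from -1.63 to 1.62 for S100a8 and from -1.74 to 1.503 for Ngp, so that a difference of more than 2-fold in either direction was within them. The narrowest was that of Lcn2, from -1.03 to 0.20. Single pools set the sign in this fit, which does not pair same-numbered libraries. Without BaP replicate 3 the log2 fold change of Ngp was -1.65, and without pre-basophil replicate 3 it was 0.78, while DESeq2, limma-voom and the other alternatives called none of the 7 either.

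Mature basophils of the spleen were compared with those of the bone marrow to ask whether late granule RNA differed between the tissues after maturation. In edgeR 0 of the 7 genes passed, where 3.16% of all tested genes were called higher and 4.67% lower in the spleen, and 1 gene (Lcn2) had an unadjusted p under 0.05. Lcn2 was at 4.54 ± 0.395 CPM in the spleen against 9.22 ± 3.91 CPM in the bone marrow (SD, n = 3 each), a log2 fold change of -1.002 (95% interval -1.86 to -0.14). Its edgeR adjusted p was 0.142. It was the only 1 of the 7 with every spleen library below every BM mature library, which held for 17.1% of all tested genes. Lcn2 did pass in DESeq2 (adjusted p = 0.0439), in the TCC scheme (0.0487), with only these groups fitted (0.0327) and without a count filter (0.000359), and over all alternatives its adjusted p ran from 0.000359 to 0.373. The fit without a filter cannot be weighed like the others. For S100a8 in pre-basophils against BM mature basophils it gave an edgeR adjusted p of 1.02e-119, against 0.00317 in the main fit. Ltf was the only 1 with every spleen library above every BM mature library (16.6% of all tested genes), at a log2 fold change of 0.82 (95% interval -1.92 to 3.57). For S100a8, S100a9, Ngp, Camp and Chil3 the log2 fold changes were 0.01, -0.64, 0.53, 0.39 and 0.72, with intervals that included more than a 2-fold change either way, except S100a9, whose upper bound was 0.95.

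**Figure D2:**
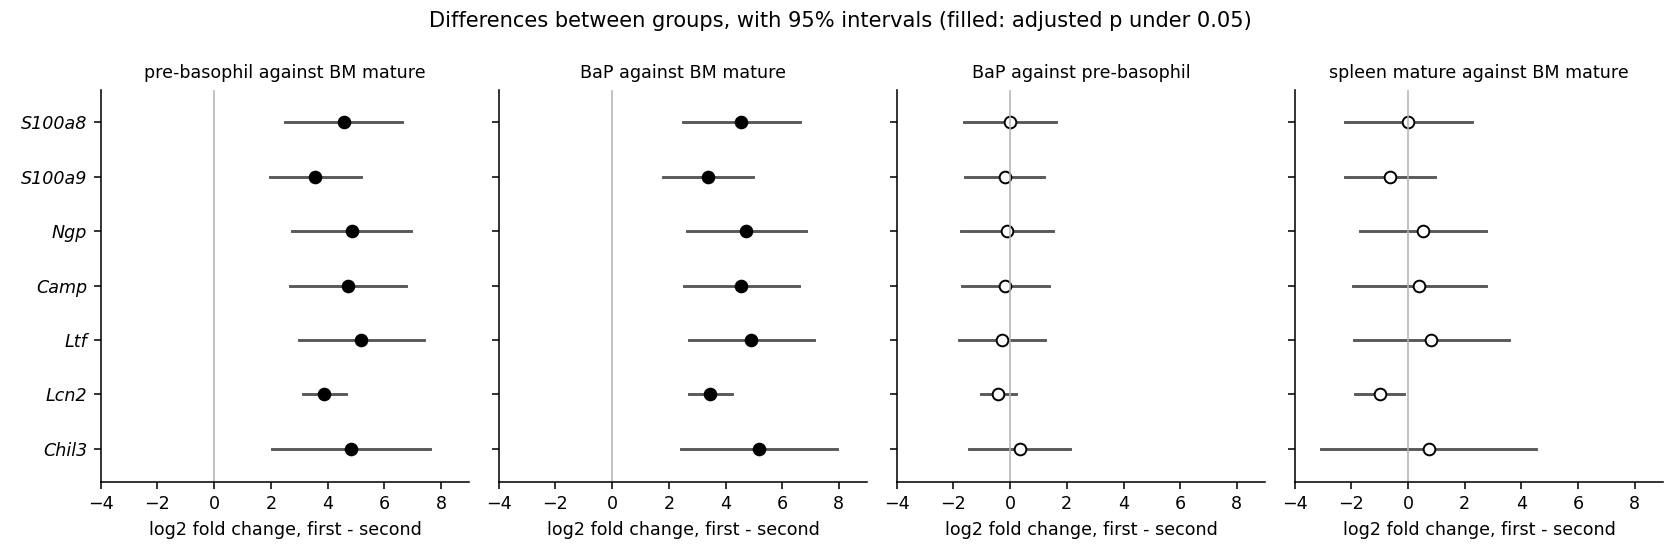
Log2 fold changes of the 7 genes in 4 comparisons, with the first-named group minus the second on the x axis, bars for the 95% interval and filled points for an edgeR adjusted p under 0.05. All 7 points are filled in the comparisons of pre-basophils and of BaPs with BM mature basophils and none in the others, and the bar of Lcn2 is the shortest in each panel.

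The spread between pools of 1 group was wide for most of these genes. Covariation between these libraries entered the choice of the genes, so the spread is given as a description. Its cause was not tested. The SD of log2 CPM within groups was 1.86 for Chil3, 1.45 for S100a8, 1.40 for Ngp, 1.36 for Ltf, 1.35 for Camp and 1.14 for S100a9, which placed these 6 between the 98.8th and the 99.7th percentile of all tested genes (median 0.287). Lcn2, at 0.50, stood at the 82.9th percentile. Across the 6 CLEC12A-high libraries the highest level exceeded the lowest 25.4-fold for S100a8, 25.03-fold for Ngp, 21.7-fold for Camp, 20.9-fold for Ltf and 13.6-fold for S100a9, but 2.80-fold for Lcn2. No ratio is given for Chil3, whose lowest library had 2 counts.

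Deviations from the group mean ran in parallel, which is how the genes were chosen and is given as a description. Over the 12 libraries the 21 pairs of genes had a median Pearson correlation of 0.90 between their deviations. The 15 pairs without Lcn2 ranged from 0.841 to 0.990 (S100a8 with S100a9), and the 6 pairs with Lcn2 from 0.553 (Ngp) to 0.838 (Ltf). Within the 6 CLEC12A-high libraries the median was 0.987, and within the 6 mature libraries, where counts were low, it was 0.427 with a lowest value of -0.57 (S100a8 with Ngp). The points of all pairs share their libraries, so depth and scaling are common to them. Prior counts of 0.5 and 5 in place of 2 gave medians of 0.876 and 0.921.

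**Figure D3:**
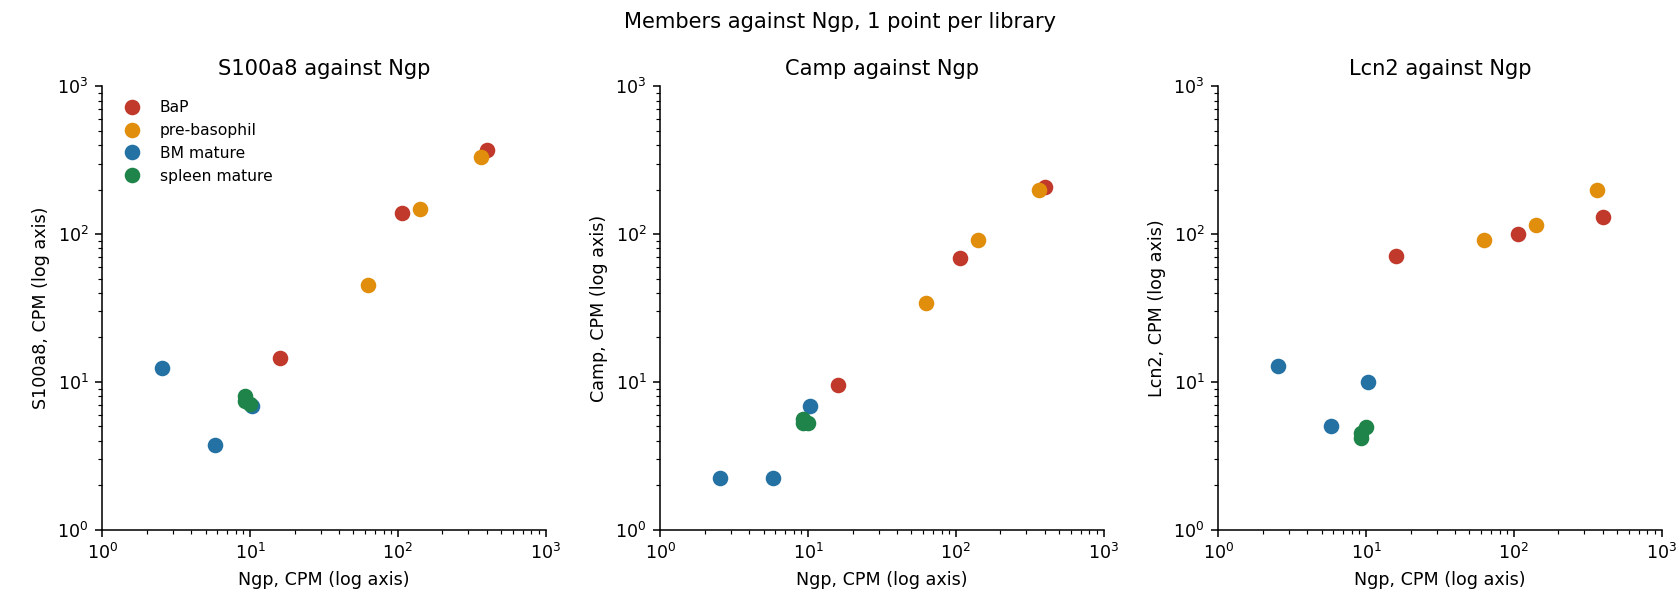
S100a8, Camp and Lcn2 against Ngp, in CPM on equal log axes, with 1 point per library coloured by group. S100a8 and Camp follow Ngp over the 6 BaP and pre-basophil libraries, whereas Lcn2 is at 70.9 CPM where Ngp is at 16.0 CPM and at 131 CPM where Ngp is at 401 CPM.

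Counts of the other genes were set against those of Ngp in the same library. Covariation between these libraries entered the choice of the genes, so the ratios are given as a description. For every 100 counts of Ngp, Camp had 59.7, 65.2 and 51.8 counts in BaP replicates 1 to 3 and 54.7, 64.9 and 54.0 in pre-basophils, and it had 56.9, 52.5 and 60.0 in the spleen, where Ngp itself was near 10 CPM. Lcn2 had 443, 94.0 and 32.7 counts per 100 of Ngp in BaPs and 144, 81.2 and 54.0 in pre-basophils, higher where Ngp was lower, and 44.8, 49.2 and 48.6 in the spleen. Over the 9 libraries outside BM mature basophils Camp thus ranged from 51.8 to 65.2, and Ltf ranged from 28.0 to 46.3, S100a9 from 151 to 279, Chil3 from 2.99 to 17.1 and Lcn2 from 32.7 to 443. In BM mature basophils, where Ngp had 8 to 55 counts, the ratios were scattered for all of them, from 39.1 to 87.5 for Camp, 13.04 to 87.5 for Ltf, 293 to 1425 for S100a9, 0 to 16.4 for Chil3 and 87.0 to 500 for Lcn2. A least-squares line through the 6 CLEC12A-high libraries crossed 0 Ngp at 75.5 CPM of Lcn2, which is 38.1% of the highest Lcn2 level in them. The mean of Lcn2 over the 6 mature libraries was 6.88 CPM. The lines of the other 5 genes crossed at -1.82 to 43.5 CPM, or -2.79% to 7.15% of their highest level, the largest being that of S100a9. Whether the Lcn2 that did not follow Ngp came from the sorted basophil-lineage cells was not tested.

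The make-up of the 6 genes without Lcn2 was alike in pre-basophil and spleen libraries, whose totals differed manifold. Covariation between these libraries entered the choice of the genes, and Lcn2, which followed the others least, was left out. The make-up is therefore given as a description. In pre-basophils S100a9 took 41.3%, 37.9% and 35.8% of their summed counts, S100a8 15.9%, 20.1% and 19.6%, and Ngp 22.1%, 19.2% and 21.6%. In the spleen, with 270 to 363 summed counts a library against 1016 to 10625, S100a9 took 38.9%, 38.9% and 41.9%, S100a8 18.2%, 15.9% and 15.4%, and Ngp 21.1%, 22.6% and 19.3%. BM mature libraries, with 128 to 315 summed counts, differed, with S100a9 at 65.1%, 60.2% and 51.1%, above every library of the other groups (34.1% to 48.3%). There S100a9 had 292, 513 and 435 counts per 100 of S100a8, against 164 to 307 in the other 9 libraries, of which BaP replicate 1 was the highest and the only 1 to overlap them. BaP replicate 1, the lowest of the CLEC12A-high libraries, had the highest S100a9 share outside BM mature basophils, at 48.3%. In BaP replicates 2 and 3 that share was 37.4% and 34.1%. Shares of Chil3 in BaP replicates 1 to 3 were 0.517%, 2.80% and 3.68%, and those of S100a8 were 15.8%, 22.7% and 20.9%.

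**Figure D4:**
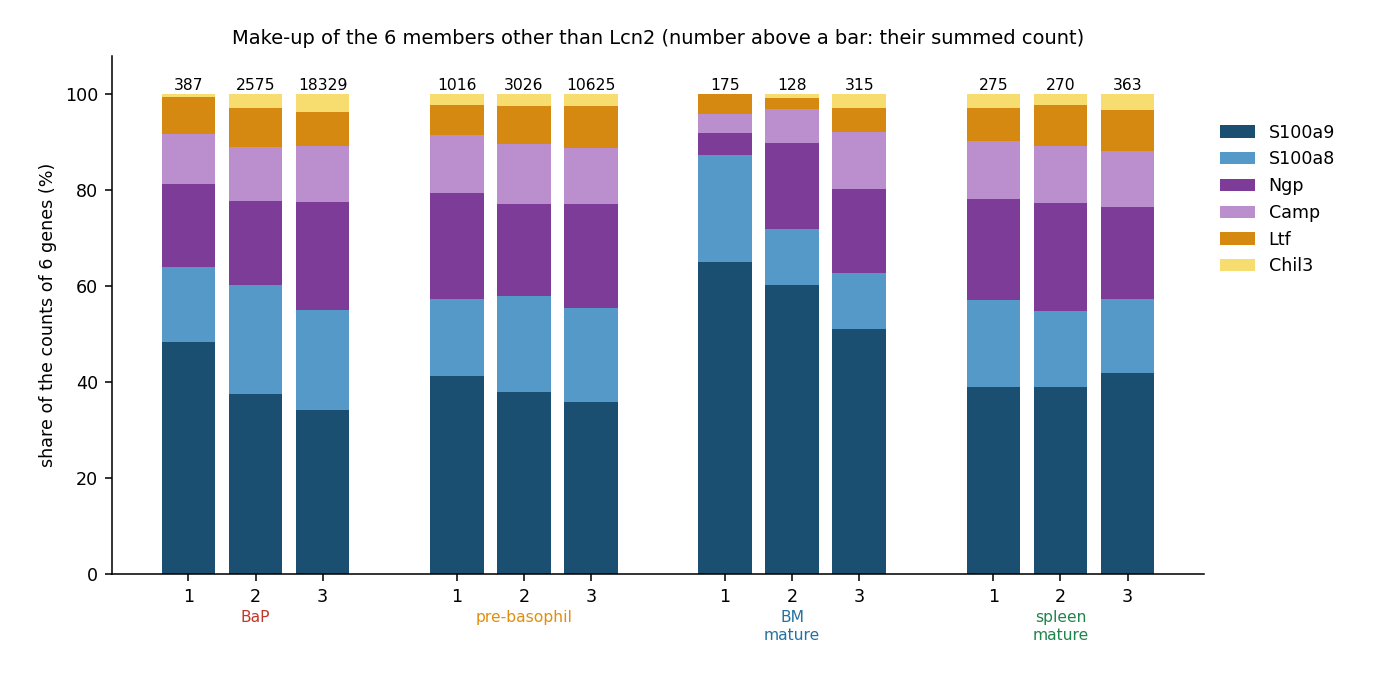
Stacked shares in percent of the summed counts of S100a9, S100a8, Ngp, Camp, Ltf and Chil3 in each library, with replicates 1 to 3 of each group side by side and the summed count above each bar. Spleen bars resemble those of pre-basophils although they rest on 270 to 363 counts, and BM mature bars hold the largest S100a9 shares, 51.1% to 65.1%.

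Other late neutrophil genes fell into sets that behaved differently. Of 25 listed, 24 were in the table and 16 were tested, and between pre-basophils and BM mature basophils 10 of the 16 were called higher and 2 lower, with a median log2 fold change of 1.11. Of all tested genes, 16.3% were called higher and 11.0% lower in this comparison. Between BaPs and pre-basophils 0 of the 16 were called higher and 4 lower in BaPs, against 2.79% and 4.29% of all tested genes. The largest changes were in genes with few counts. Cd177, a neutrophil surface glycoprotein, was at 2.52, 8.76 and 13.8 CPM in pre-basophils and at 0, 0 and 0.749 CPM in BM mature basophils (log2 fold change 4.68 ± 1.21 (SE), edgeR adjusted p = 0.0109). Ifitm6, an interferon-induced membrane protein of myeloid cells, was at 7.55, 19.0 and 28.6 CPM against 0.955, 1.25 and 2.06 CPM (3.62 ± 0.74, edgeR adjusted p = 0.00242). Wfdc21, a small whey acidic domain protein, was at 1.12, 2.92 and 5.92 CPM against 0.318, 0.250 and 0.187 CPM (3.74 ± 0.97, edgeR adjusted p = 0.0113).

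The most abundant genes of that list did not share this pattern of pools. Anxa1, the glucocorticoid-regulated annexin A1, was at 1914, 1054 and 1737 CPM in the pre-basophil libraries and 840, 557 and 775 CPM in BM mature basophils (log2 fold change 1.12 ± 0.30 (SE), edgeR adjusted p = 0.0147). Pglyrp1, a peptidoglycan-binding granule protein, was at 533, 515 and 590 CPM against 325, 353 and 345 CPM (0.68 ± 0.14, edgeR adjusted p = 0.00293). Ncf1, a cytosolic subunit of the NADPH oxidase, was lower in pre-basophils, at 340, 381 and 351 CPM against 604, 662 and 573 CPM (-0.78 ± 0.13, edgeR adjusted p = 0.000487). In spleen mature basophils the same genes were at 343 to 373, 239 to 263 and 561 to 635 CPM, so that their transcripts were plentiful in libraries where the 7 genes summed to about 50.1 CPM.

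The split was visible in the correlation with the mean deviation of the 7 genes over the 6 CLEC12A-high libraries, given as a description in which all points share their libraries. It exceeded 0.9 for 9 of the 16 other late neutrophil genes, named here after their values were seen. These were Mmp8 and Mmp9 (collagenase and gelatinase), Cd177, Retnlg, Ifitm6, Wfdc21, Lrg1, Lyz2 (lysozyme) and Cybb (the membrane subunit of the NADPH oxidase). It was -0.78 for Anxa1, -0.55 for Pglyrp1 and -0.41 for Ncf1. Of the 15076 tested genes outside the 7, 506 exceeded 0.9, and the median was 0.01. Retnlg, a resistin-like granulocyte secretion, was at 244 CPM in BaP replicate 3 and at 59.8 CPM in pre-basophil replicate 3, although the 7 genes reached like levels in both, and it was at 30.6, 30.6 and 21.3 CPM in BM mature basophils, where they were low.

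Primary granule genes were read from a list of their own. Of the 11 listed genes 10 were tested, and 7 were called higher and 0 lower in pre-basophils than in BM mature basophils, with a median log2 fold change of 2.66. Of all tested genes, 16.3% were called higher and 11.0% lower there. Between BaPs and pre-basophils 4 of the 10 were called higher in BaPs and 0 lower, against 2.79% and 4.29% of all tested genes. Ctsg, which encodes cathepsin G, was at 2489, 2135 and 767 CPM in the BaP libraries, 1480, 1191 and 1211 in the pre-basophil libraries, 140, 138 and 75.6 in BM mature and 34.6, 47.0 and 39.6 in spleen mature basophils. Ms4a3, a membrane protein of granulocyte-monocyte progenitors, was at 449, 404 and 157 CPM in the BaP libraries, 252, 201 and 200 in the pre-basophil libraries, falling to 19.7, 26.5 and 8.61 CPM in BM mature basophils. Elane, which encodes neutrophil elastase, was at 10.3, 12.7 and 8.81 CPM in the BaP libraries, at 5.03, 3.16 and 2.56 in the pre-basophil libraries, but at 0.318, 0.250 and 0.187 CPM in BM mature basophils. For pre-basophils against BM mature basophils their log2 fold changes were 3.46 ± 0.36, 3.597 ± 0.40 and 3.73 ± 0.54 (SE), with edgeR adjusted p-values of 1.69e-05, 2.49e-05 and 0.000224. The abundant Srgn (serglycin, a granule proteoglycan) and Cd63 (a granule tetraspanin) were not called there, at -0.46 and 0.20. The correlation with the deviations of the 7 genes in the CLEC12A-high libraries exceeded 0.9 for 0 of the 10 and had a median of -0.77. Among the 6 CLEC12A-high libraries both Ctsg and Ms4a3 were lowest in BaP replicate 3, which also had the lowest basophil markers of the 6.

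Regulators and receptors of neutrophils gave a mixed picture. Of 14 listed, 12 were tested, and 3 were called higher and 4 lower in pre-basophils than in BM mature basophils, against 16.3% and 11.0% of all tested genes. Itgb2 (the common beta chain of leukocyte integrins), Cebpa (a regulator of granulocyte commitment) and Spi1 (PU.1) were the most abundant, with means of 364 ± 26.6, 283 ± 35.03 and 209 ± 17.3 CPM in pre-basophils (SD, n = 3) and log2 fold changes of 0.25, -0.06 and -0.56, of which that of Spi1 was called (edgeR adjusted p = 0.0217). Ly6g, the surface antigen that defines mouse neutrophils and a gene outside the naming rule, was at 2.90 ± 2.34 CPM against 0.231 ± 0.202 CPM, a log2 fold change of 3.58 ± 0.98 (SE; edgeR adjusted p = 0.0151), with counts of 3, 10 and 34 in pre-basophils and of 5, 7 and 54 in BaPs. Cebpe, which encodes C/EBP epsilon and is likewise outside the rule, had 2, 7 and 78 counts in BaPs and 0, 6 and 21 in pre-basophils, and it had 1 to 7 counts in the mature libraries. Also outside the rule, Fpr2 and Trem1 were called higher in pre-basophils. Called lower besides Spi1 were Cxcr2 (log2 fold change -1.49, edgeR adjusted p = 1.38e-05), Itgam (-0.995, edgeR adjusted p = 0.000192) and Cebpd (-0.88, edgeR adjusted p = 0.0388). Csf3r was not called (-0.26). Of the receptors that the products of these genes bind, 7 were listed and 5 tested, and 2 were called higher in pre-basophils, against 16.3% of all tested genes. Bsg (basigin, bound by S100a9) was at 245 ± 28.5 against 164 ± 4.68 CPM (SD, n = 3 each; log2 fold change 0.58 ± 0.15 (SE), edgeR adjusted p = 0.0122). Slc22a17, a lipocalin-2 receptor, and Ager, which binds S100 proteins, were not called and stood at 3.23 and 2.21 CPM in pre-basophils.

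**Figure D5:**
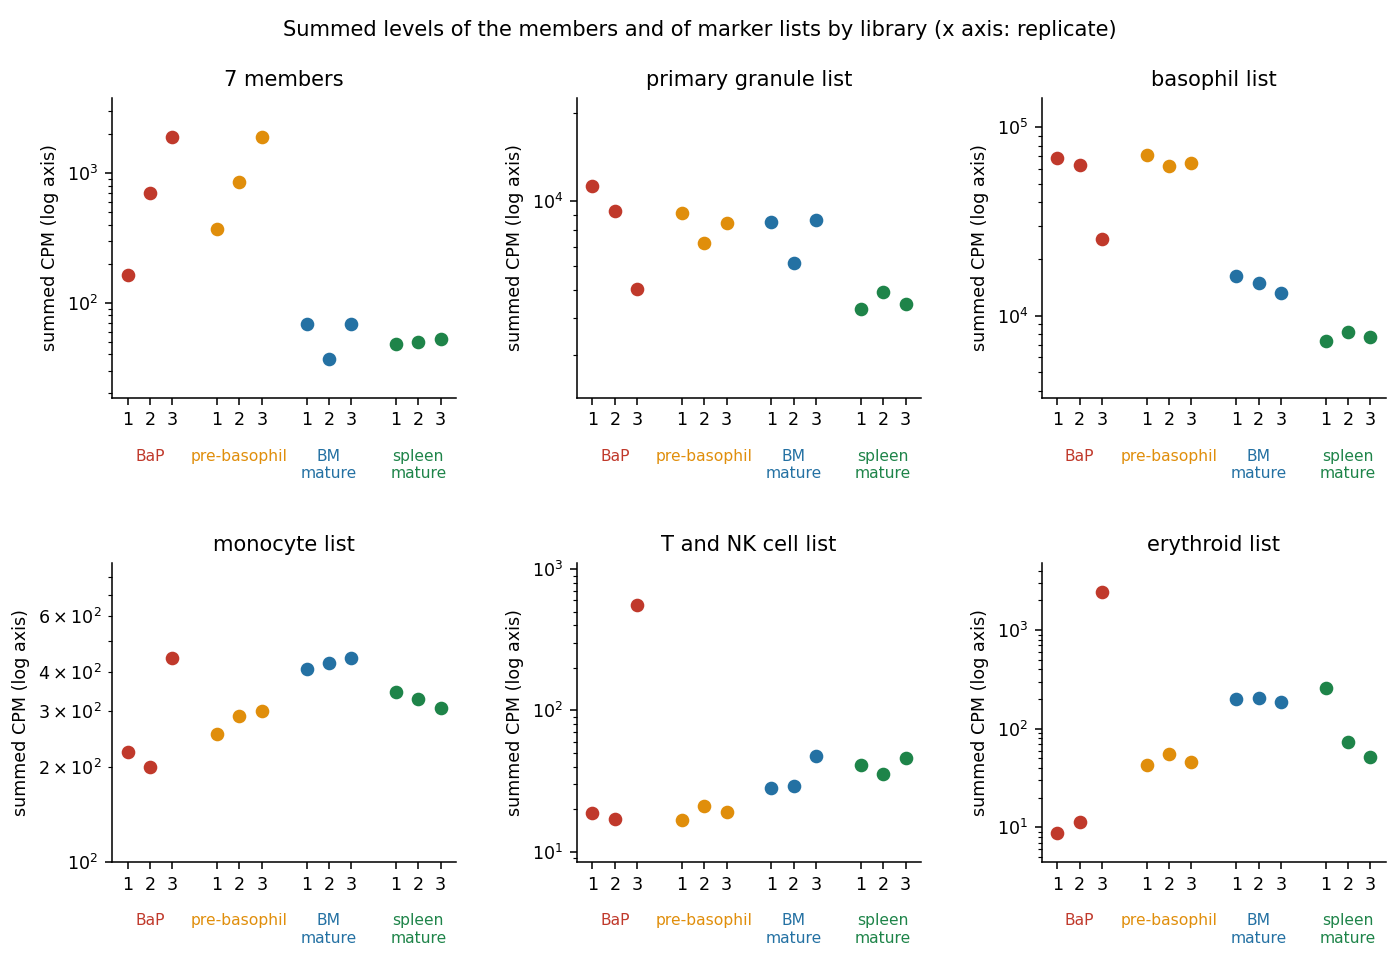
Summed CPM on log axes of the 7 genes and of 5 marker lists, 1 point per library in the order of replicates 1 to 3. The T and NK cell and erythroid lists stand out in BaP replicate 3 alone, at 555 and 2417 CPM, whereas the 7 genes are as high in pre-basophil replicate 3 as in BaP replicate 3.

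Summed levels of the other cell markers did not separate the libraries as the 7 genes did, apart from BaP replicate 3. Monocyte markers summed to 224, 200 and 442 CPM in the BaP libraries and to 255, 290 and 301 CPM in pre-basophils, but were as high in BM mature basophils (409 to 443 CPM) where the late genes were low. There the sum came mostly from Ccr2 and Ms4a6c, with means of 202 and 164 CPM. Correlations of the 8 tested monocyte genes with the 7 genes' deviations over the CLEC12A-high libraries had a median of 0.64, and 0 exceeded 0.9. The medians were 0.73 for B cell, 0.71 for platelet, 0.70 for T and NK cell, 0.65 for erythroid and 0.37 for eosinophil genes. In each of these lists too 0 exceeded 0.9, and the median of all tested genes outside the 7 was 0.01. BaP replicate 3 is among these libraries. Markers of B cells ran from 35.5 to 43.7 CPM and those of eosinophils from 56.0 to 64.0 CPM in pre-basophils, while the 7 genes ran from 375 to 1898 CPM in the same libraries. In BaP replicate 3 these lists were at 75.0 and 223 CPM, the latter the highest of the 12 libraries. Platelet markers summed to 407.6 to 592 CPM over the 6 CLEC12A-high libraries, mostly from Itga2b (286 to 583 CPM). Pf4 and Ppbp set BaP replicate 3 apart, at 104 and 46.8 CPM. In the other CLEC12A-high libraries they were at 0.717 to 8.11 and 0.239 to 3.68 CPM. The mast cell list, of which only Kit was tested, was at 38.2 CPM or less in every library. The part of these cell types in the results was not tested.

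By a fixed rule the genes most like the 7 were sought over all 12 libraries, as the correlation of a gene's deviations with the mean deviation of the 7 among 9636 genes with at least 10 CPM in some group. The 10 most alike were Neil1 (0.973), Cybb (0.964), Pirb (0.962), Atmin (0.956), Ifitm6 (0.953), Cldn1 (0.947), S100a10 (0.938), Isg15 (0.924), Slc37a1 (0.922) and Gm13722 (0.921). In all, 17 genes exceeded 0.9. Cybb and Ifitm6 belong to the late neutrophil list and had within-group SDs of 1.28 and 0.974 on the log2 scale, whereas Neil1 (0.367), Atmin (0.315), Isg15 (0.310) and S100a10 (0.144) varied less than any of the 7 genes, of which Lcn2 was the nearest at 0.50. Of these 10, 2 were also among the 10 most alike over the 6 CLEC12A-high libraries alone. Pirb (an inhibitory receptor of myeloid cells), S100a10 and Cldn1 were highest in mature basophils, at 40.6, 1007 and 21.4 CPM in the bone marrow, opposite to the 7 genes between groups.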

How the data were processed

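Polyadenylated RNA of sorted cells was amplified by the authors with the TAS-Seq workflow and sequenced. Reads were trimmed with Cutadapt 3.4 and mapped to reference transcripts with Bowtie2 2.4.2, and the deposited values are raw counts per gene. The study's methods name GRCm38 and the submitters' processing notes GRCm39, and no coordinate was taken from the reads. Strand use and the handling of reads matching several genes are not given in the sources used here, and PCR copies were counted as reads. Coordinates and exon lengths were taken from GENCODE M21 (GRCm38).

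In edgeR 4.0.16 (R 4.3.3), low counts were removed by filterByExpr, libraries were scaled by TMM, and the 12 libraries entered 1 quasi-likelihood fit with 4 group means. Called genes had an adjusted p under 0.05. CPM used TMM-scaled totals, log2 CPM a prior count of 2. Alternatives were DESeq2 1.42.0, limma-voom (limma 3.58.1), the study's TCC scheme rebuilt in edgeR, other scalings and filters, a replicate block and libraries left out. The fits were tested on simulated counts. Replicates of a group differed beyond sampling noise (chi-square per degree of freedom 4.16 to 35.02), so each counted as 1 sample. Same-numbered bone marrow libraries deviated together (r 0.125 to 0.262), so their numbers were taken to pair them, but spleen libraries did not (r 0.000366 to 0.0899). The main fit left this pairing out, so its SEs and intervals include variation that same-numbered libraries share. Only the replicate block used it. For pre-basophils against BM mature basophils, edgeR adjusted p-values with the block ran from 1.87e-06 (Lcn2) to 0.00171 (S100a8).

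The 7 genes and the lists were chosen with earlier results of these data known. Named from the other lists were the 3 most abundant tested genes of each and, for the late neutrophil and primary granule lists, the 3 called genes with the largest change between pre-basophils and BM mature basophils. Where a gene outside this rule is named, the text says so.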

Additional observations from a re-analysis of the deposited data

How the results depend on the processing

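All 7 genes stayed called in pre-basophils and BaPs against BM mature basophils under each scaling, DESeq2, the TCC scheme, no filter and the replicate block, except that limma-voom called 3 and 2, leaving out 1 library gave 6 to 7 in pre-basophils, and Chil3 failed the filter when only BaPs and BM mature basophils were fitted (6 called of 6 tested). In spleen against BM mature basophils 0 were called in most settings, but 1 (Lcn2) in DESeq2, 1 in the TCC scheme and 1 with the libraries numbered 3 of BaPs and pre-basophils left out together (an alternative chosen after seeing the data), and 2 (Lcn2 and S100a9) without a filter and with only these groups fitted. Without a filter, adjusted p-values of the 7 genes in pre-basophils against BM mature basophils were far below those of the main fit. Calls in that setting are therefore not weighed like the others. The replicate block changed no call. The cause of these shifts was not tested.

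Signs between BaPs and pre-basophils, none of them called, were unstable. Scaling by library size alone, which put the median of all tested genes at 0.23 in place of 0.02 on the log2 scale, gave 0.29 for S100a8, 0.10 for S100a9, 0.19 for Ngp and 0.13 for Camp. S100a8 was at 0.017 with upper-quartile scaling, 0.0061 in the TCC scheme, 0.0025 without a filter and 0.027 with only these groups. Chil3 was at -0.45 in limma-voom, -0.065 with the replicate block, -0.070 with that block in the 9 bone marrow libraries, and -0.47 with both libraries numbered 3 left out. Leaving out 1 library moved S100a8 from -1.22 to 0.86, S100a9 from -1.31 to 0.56, Ngp from -1.65 to 0.78, Camp from -1.48 to 0.62, Ltf from -1.45 to 0.70 and Chil3 from -1.40 to 1.22. In spleen against BM mature basophils S100a8 was at -0.042 in DESeq2 and -0.069 in the TCC scheme, and from -0.31 to 0.43 with 1 library left out. Low counts limit the mature groups, with 0 to 12 counts of Chil3 per library.

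Over all tested genes, calls between BaPs and pre-basophils (1068) became 1620 with library size alone, 2091 without a filter, 375 with only these groups and 382 to 1831 with 1 library left out. Those between spleen and BM mature basophils (1181) became 1796 without a filter, 2340 with only these groups, 2595 with both libraries numbered 3 left out and 241 to 2653 with 1 left out. Library size alone raised the share of called genes that were higher in the first group from 59.8% to 82.5% (pre-basophil against BM mature), 56.3% to 82.9% (BaP against BM mature), 39.4% to 79.6% (BaP against pre-basophil) and 40.4% to 60.6% (spleen against BM mature).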
